A study of Homo sapiens with 6 samples.

Results

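Collagens are triple-helical proteins built from chains that are each encoded by a separate gene, and the chains present in a cell set which trimers it can assemble. Here the collagen chain genes were taken as the protein-coding genes of the deposited table whose symbol has the form COL, a type number, A and a chain number, with the exception of COL17A1, the hemidesmosomal transmembrane collagen. This gave 43 genes of 62700 in the table. The rule itself uses names and no measured value.

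The study sequenced poly(A) RNA from SAS cells, a line derived from a human squamous carcinoma of the tongue and labelled wild type in all libraries. Cells received an siRNA against IGF2BP1, a protein that binds and stabilises mRNAs (knockdown 1 to 3), or a control siRNA (control 1 to 3). The sources used here do not give the time after transfection or the siRNA sequences, nor whether replicates are separate cultures. The p-values below therefore weigh the difference between groups only against the spread of these libraries within a group, and that spread may be technical.

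Epithelial cells are known for secreting the chains of the basement membrane they sit on, mainly type IV collagen, which polymerises into a sheet, with type XVIII collagen inside that sheet and type VII collagen anchoring it to the tissue below. Type I and type III collagen fibrils of the connective tissue are known as products of fibroblasts. Chains are hydroxylated, glycosylated and folded in the endoplasmic reticulum, exported in enlarged carriers, trimmed by proteases and cross-linked outside the cell.

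Libraries held between 17918496 and 25926371 counted reads in the knockdown group and between 23775889 and 26675064 in the control group. IGF2BP1 itself had 29, 25 and 21 reads in knockdown libraries, against 185, 223 and 292 in control libraries, a log2 fold change of -3.07 (SE 0.30, adjusted p = 4.56e-06). Squamous and general epithelial markers, read as 1 list, were abundant. Their sum was 13051 to 13978 CPM (the read count scaled to library size) in knockdown libraries and 23675 to 25620 CPM in control libraries. Of the 12 markers, 6 were called lower (6.66% of all tested genes were). Among them were KRT5 (log2 fold change -2.91) and the simple-epithelial keratins KRT8 (-0.77) and KRT18 (-1.26), which had the highest levels of the list. The other 6 were not called, among them the squamous markers TP63 (-0.01), KRT17 (-0.01), SFN (-0.04) and DSP (-0.12). Of 12 fibroblast markers, 5 passed the count filter and PDGFRB, which its knockdown libraries alone carried past the filter, was called higher (1.52, adjusted p = 0.0491), while DCN, LUM, THY1, FBN1 and COL3A1 had 0 reads in every library. The fibroblast sum was 15.7 to 24.7 CPM in knockdown libraries and 15.6 to 20.3 CPM in control libraries, and this list shares COL1A1, COL1A2 and COL3A1 with the collagen chains. Endothelial markers summed to 6.61 to 14.2 CPM in knockdown libraries and 6.33 to 8.56 CPM in control libraries, with 3 of 8 tested, 0 called and KDR, EMCN and CLDN5 at 0 reads. Of 6 leukocyte markers only CD14 was tested (-0.44, adjusted p = 0.0944), PTPRC and CD3E had 0 reads, and the sum was 12.3 to 14.3 CPM in knockdown libraries and 17.5 to 18.5 CPM in control libraries. The part of the fall in some epithelial markers in the collagen results was not tested.

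The collagen chains counted in SAS cells were weighted towards the basement membrane. Across genes, levels in these libraries went with GC content, as given below. Reads were found for 34 of the 43 genes, 21 passed the filter on low counts and were tested, 19 averaged at least 1 CPM in either group, and 12 averaged at least 10 CPM. Per length, COL4A2 stood first with 42.1 ± 7.99 RPKM (CPM divided by the gene length in kilobases) in knockdown and 51.7 ± 7.86 RPKM in control libraries (SD, n = 3 each). COL7A1 came next with 35.1 ± 2.23 RPKM in knockdown and 42.6 ± 7.82 RPKM in control libraries. The distance between them depends on the gene length used: by the length of the main GENCODE transcript COL4A2 had 125 ± 23.7 RPKM in knockdown and 153 ± 23.3 RPKM in control libraries, and COL7A1 42.1 ± 2.68 RPKM in knockdown and 51.1 ± 9.39 RPKM in control libraries. The values that follow use the deposited length again. COL16A1 (15.5 ± 2.68 RPKM in knockdown, 20.9 ± 4.16 RPKM in control) and COL18A1 (11.9 ± 0.728 RPKM in knockdown, 23.3 ± 2.89 RPKM in control) followed, and these neighbours overlapped in the control group. COL6A1, COL4A1 and COL9A3 had 9.66 ± 2.13, 4.29 ± 0.603 and 7.32 ± 0.792 RPKM in knockdown libraries, and 11.2 ± 2.14, 7.64 ± 0.908 and 4.39 ± 0.859 RPKM in control libraries. COL4A1 therefore stood above COL9A3 in the control group and below it in the knockdown group. Every other tested chain was under 10 RPKM in both groups.

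**Figure D1:**
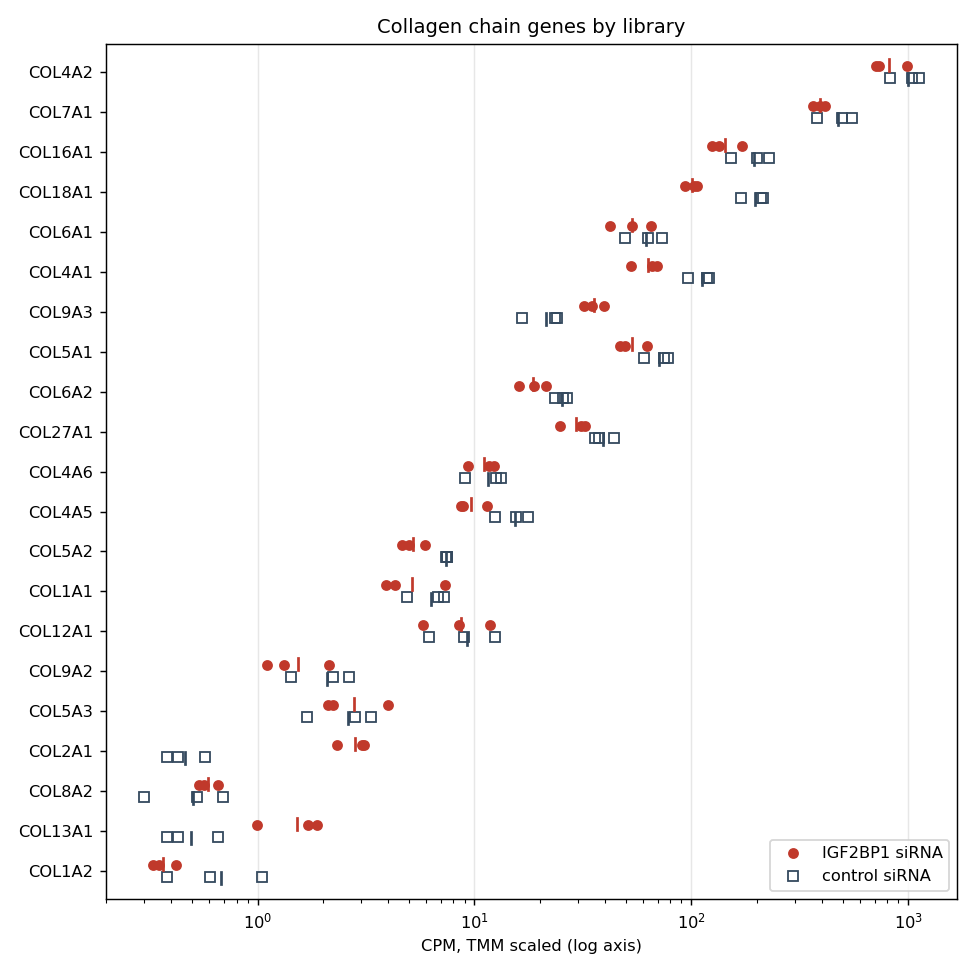
Level of the 21 tested collagen chain genes in each library, in TMM-scaled CPM on a log axis, ordered from high to low level per length. Filled points are IGF2BP1 siRNA libraries, open squares control siRNA libraries and ticks group means (n = 3 each). All points of COL18A1, COL4A1, COL4A5, COL6A2, COL27A1 and COL5A2 lie left of their squares. All points of COL9A3, COL2A1 and COL13A1 lie right of theirs.

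Across the 21 tested genes, 3 fell in knockdown libraries (COL18A1, COL4A1 and COL4A5), 2 rose (COL2A1 and COL9A3) and 16 did not pass the adjusted p of 0.05. The called share was 23.8% for the collagen chains, beside 12.9% of all 14649 genes tested. It was 14.3% for lower calls, beside a background of 6.66%, and 9.52% for higher calls, beside a background of 6.27%. The log2 fold change (knockdown over control) was below 0 for 16 of 21 chains, of which COL12A1 and COL4A6 turned positive when no scaling factor was used. The share below 0 was 76.2%, beside 46.7% of all genes, and the median was -0.29, beside 0.03 over all genes. In 6 chains every knockdown library was below every control library, a pattern that 15.1% of all tested genes showed, and in 3 chains every knockdown library was above every control library, which 15.5% of all genes showed. In bulk RNA, fewer cells that express a chain and less of its RNA per cell cannot be told apart.

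The number of chains called depended on single libraries. It was 9 without knockdown 1 and 8 without control 3, 7 and 6 of them lower. It was 11, 8 of them lower, with a correction for GC content chosen after seeing the data. That correction also raised the calls over all tested genes, from 1893 to 2476. Calls over all genes in the other alternative fits are not given here, so these counts cannot be set against the 12.9% above.

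**Figure D2:**
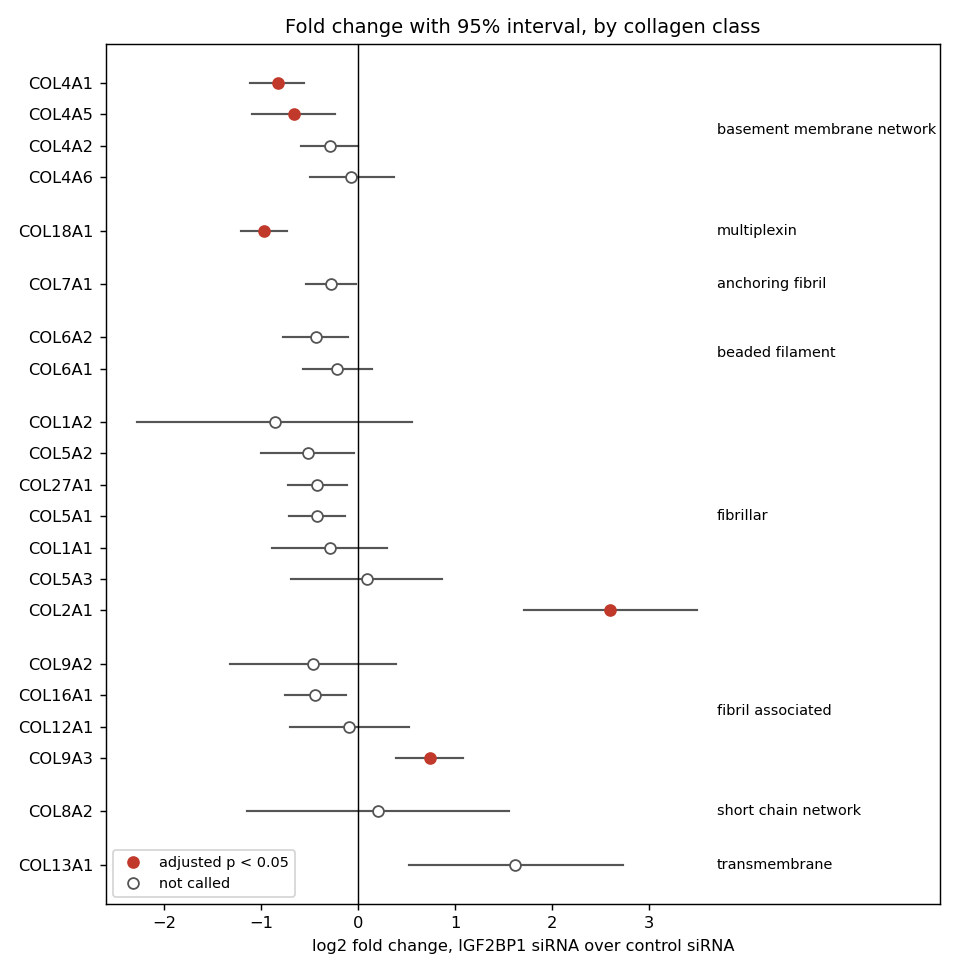
Log2 fold change of each tested collagen chain gene, IGF2BP1 siRNA over control siRNA, with the 95% interval of the edgeR fit, grouped by collagen class. Filled points passed an adjusted p of 0.05. COL4A1, COL4A5 and COL18A1 are filled and below 0, and COL2A1 (2.60) and COL9A3 (0.74) are filled and above 0.

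Of the 6 chains of the basement membrane network, COL4A1 and COL4A5 fell, COL4A2 and COL4A6 were not called, and COL4A3 and COL4A4, chains of the kidney glomerulus, were under the filter. These 6 genes lie as 3 head-to-head pairs on opposite strands. By RefSeq starts the members of a pair begin 127 bases apart for COL4A1 and COL4A2 on chromosome 13, 380 bases apart for COL4A5 and COL4A6 on chromosome X, and 419 bases apart for COL4A3 and COL4A4 on chromosome 2. The partners of both expressed pairs had different calls, which is not a test of a difference between partners. The fold change intervals of COL4A1 (-1.11 to -0.56) and COL4A2 (-0.59 to -0.00) overlapped. So did those of COL4A5 (-1.09 to -0.24) and COL4A6 (-0.50 to 0.37). The ratio of partners, given below, did not overlap between groups in either pair (exact permutation p = 0.10, adjusted 0.25). The distances are those of the nearest RefSeq starts, and which starts these cells use was not tested. The stretch between these starts of COL4A1 and COL4A2 is shown as the RefSeq promoter window of COL4A2 (GRCh38.p14, chr13:110307034-110307333, plus strand).

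COL4A2: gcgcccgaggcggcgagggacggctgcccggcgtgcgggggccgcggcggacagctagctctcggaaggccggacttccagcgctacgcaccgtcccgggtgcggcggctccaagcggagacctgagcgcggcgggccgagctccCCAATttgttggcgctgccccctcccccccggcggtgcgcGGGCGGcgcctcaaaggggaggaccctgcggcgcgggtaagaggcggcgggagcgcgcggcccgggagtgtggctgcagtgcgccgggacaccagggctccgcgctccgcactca

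Capitals mark matches, on either strand, to 4 motifs searched: GGGCGG, called the GC box; CCAAT, called the CCAAT box; TATAAA, called the TATA box; and GGAATG, the motif of the TEAD transcription factors. They are written as their reverse complements where the match is on the other strand. COL4A2 starts at base 251 of this window and runs to the right, and COL4A1 starts at base 124 and runs to the left. The CCAAT match lies at position -105 from the COL4A2 start and -26 from the COL4A1 start. The GC box lies at -65 from COL4A2 and -67 from COL4A1. Such matches are common: of all 35116 RefSeq promoter windows of this length, 45% hold a GC box, 34.6% a CCAAT box, 11.5% a TATA box and 14% a TEAD motif. Promoters were in the table for 15 of the 21 tested chains, with 18 windows in all, of which 15 held a GC box, 5 a CCAAT box, 4 a TATA box and 1 a TEAD motif.

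COL4A1 (ENSG00000187498; chr13:110148963-110307233, minus strand, GENCODE release 29 on GRCh38), whose chain outnumbers that of COL4A2 in their shared trimer, had 69.7, 66.2 and 52.9 CPM in knockdown libraries and 118, 121 and 96.7 CPM in control libraries. Every knockdown library was below every control library. Its log2 fold change was -0.83 (SE 0.13, 95% interval -1.11 to -0.56, adjusted p = 0.00039), and it passed in every alternative fit run.

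COL4A2 (ENSG00000134871; chr13:110305812-110513209, plus strand), its trimer partner and the most abundant chain, had 989, 712 and 735 CPM in knockdown libraries and 1043, 1118 and 826 CPM in control libraries. Knockdown 1 lay above control 3, so the groups overlapped. The fold change was -0.29 (SE 0.14, adjusted p = 0.193). Without knockdown 1 it was -0.46 with an adjusted p of 0.0135, and with the GC correction -0.34 with an adjusted p of 0.0455; over all alternative fits its adjusted p ran from 0.0135 to 0.426.

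COL4A5 (ENSG00000188153; chrX:108439844-108697545, plus strand), the chain mutated in X-linked Alport syndrome, had 11.4, 8.84 and 8.68 CPM in knockdown libraries and 15.6, 17.7 and 12.5 CPM in control libraries. The groups did not overlap, and the fold change was -0.66 (SE 0.20, 95% interval -1.09 to -0.24, adjusted p = 0.0366). This was the only one of the 5 calls that other fits lost: the adjusted p was 0.0691 without knockdown 2, 0.124 without knockdown 3, 0.0793 without control 1, 0.158 without control 2 and 0.0664 with no scaling factor, at fold changes of -0.56 to -0.68 in these fits. Over all alternative fits its adjusted p ran from 0.0108 to 0.158. Its RefSeq promoter window (GRCh38.p14, chrX:108439588-108439887, plus strand) is given for comparison with that of COL4A2. It holds CCAAT matches at -247 and -239 and none of the other 3 motifs, with 49.3% GC against 77.7% in the COL4A2 window.

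COL4A5: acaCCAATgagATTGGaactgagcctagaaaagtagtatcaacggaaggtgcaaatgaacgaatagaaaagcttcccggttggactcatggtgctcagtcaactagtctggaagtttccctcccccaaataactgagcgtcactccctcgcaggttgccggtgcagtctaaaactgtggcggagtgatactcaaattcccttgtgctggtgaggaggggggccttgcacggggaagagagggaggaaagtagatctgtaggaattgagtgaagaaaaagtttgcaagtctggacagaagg

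COL4A6, which shares a trimer with COL4A5 in epithelial basement membranes, had 11.7, 12.3 and 9.37 CPM in knockdown libraries and 12.6, 13.3 and 9.06 CPM in control libraries. The groups overlapped throughout, and the gene was not called (-0.07, SE 0.21, adjusted p = 0.881), with a positive sign of 0.021 when no scaling factor was used.

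The balance of chains within a trimer was read as a ratio of levels per length in each library. The COL4A2 to COL4A1 ratio was 10.8, 8.18 and 10.6 in knockdown libraries and 6.72, 7.02 and 6.5 in control libraries, with means of 9.85 ± 1.45 and 6.75 ± 0.259 (SD, n = 3 each). The COL4A6 to COL4A5 ratio was 1.3, 1.78 and 1.38 in knockdown libraries and 1.03, 0.958 and 0.926 in control libraries. Neither pair overlapped between groups. The two-sided exact permutation p was 0.10 for each, the smallest that 3 against 3 libraries allow, and 0.25 after Benjamini-Hochberg adjustment over the 5 pairs compared. The size of a ratio depends on the gene length used: with GENCODE transcript lengths the COL4A2 to COL4A1 means were 13.2 in knockdown and 9.03 in control, and the COL4A6 to COL4A5 means 1.14 in knockdown and 0.743 in control.

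The other 3 pairs gave no separation beyond the spread of libraries. COL5A1 to COL5A2 averaged 6.68 ± 0.219 in knockdown and 6.27 ± 0.847 in control libraries (exact permutation p = 0.70, adjusted 0.7). COL6A1 to COL6A2 averaged 2.73 ± 0.22 in knockdown and 2.36 ± 0.366 in control libraries (exact permutation p = 0.30, adjusted 0.375). COL9A3 to COL9A2 averaged 22.1 ± 7.88 in knockdown and 9.73 ± 4.66 in control libraries (exact permutation p = 0.20, adjusted 0.333), with knockdown 2 at 13 below control 2 at 14.7.

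**Figure D3:**
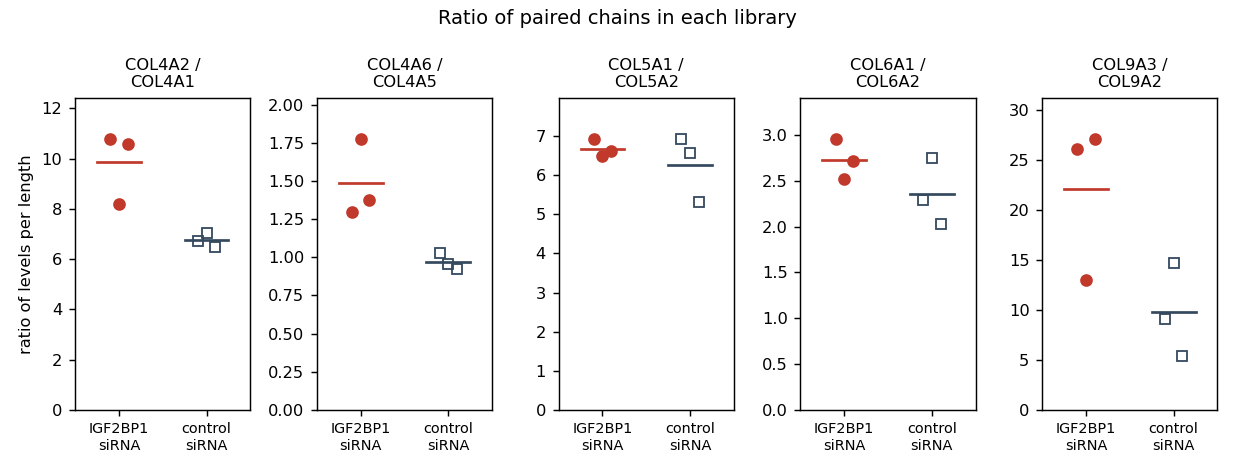
Ratio of the levels per length of 5 pairs of collagen chains in each library, on linear axes from 0. Filled points are IGF2BP1 siRNA libraries, open squares control siRNA libraries and lines group means (n = 3 each). The groups are apart for COL4A2 to COL4A1 and COL4A6 to COL4A5 and overlap for the other 3 pairs.

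COL18A1 (ENSG00000182871; chr21:45405137-45513720, plus strand), the basement membrane chain whose end is released as the fragment endostatin, had the lowest fold change of all 21 chains. Its levels were 103, 93.8 and 106 CPM in knockdown libraries and 214, 209 and 169 CPM in control libraries. The knockdown libraries lay close together and far below the controls. The fold change was -0.97 (SE 0.11, 95% interval -1.21 to -0.73, adjusted p = 2.62e-05), and it passed in every alternative fit run. Exons of SLC19A1, the reduced folate carrier on the opposite strand, cover 16.4% of its exon bases, and the sources used here do not give the strand setting of the counting. SLC19A1 had 116, 115 and 103 CPM in knockdown libraries and 146, 143 and 124 CPM in control libraries (fold change -0.31, adjusted p = 0.0702).

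COL18A1 is transcribed from alternative starts, which gene-level counts pool. Windows of a pair of them are shown to compare their make-up (RefSeq, GRCh38.p14, plus strand): an upstream start at chr21:45404915-45405214 and a downstream start at chr21:45455272-45455571. The upstream window has 86.7% GC and 9 GC boxes, all as the reverse complement, of which the pair at -82 and -77 share a base. The downstream window has 66.3% GC, 1 such GC box at -20 and a TATA box at -204.

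COL18A1 upstream: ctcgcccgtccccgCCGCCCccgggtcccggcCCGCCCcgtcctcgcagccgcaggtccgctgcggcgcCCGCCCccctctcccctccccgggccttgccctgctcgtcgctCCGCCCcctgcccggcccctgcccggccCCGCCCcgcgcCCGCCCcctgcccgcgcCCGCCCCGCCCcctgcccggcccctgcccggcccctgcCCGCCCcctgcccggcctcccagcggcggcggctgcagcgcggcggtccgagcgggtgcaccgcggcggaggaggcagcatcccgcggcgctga

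COL18A1 downstream: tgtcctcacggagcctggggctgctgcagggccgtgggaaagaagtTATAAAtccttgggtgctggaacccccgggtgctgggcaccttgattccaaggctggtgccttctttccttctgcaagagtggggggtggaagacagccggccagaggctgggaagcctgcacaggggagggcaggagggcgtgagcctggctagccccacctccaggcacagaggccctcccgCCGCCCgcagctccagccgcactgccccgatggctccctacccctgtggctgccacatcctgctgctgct

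COL15A1, the other multiplexin, a basement membrane chain of connective tissue, stayed under the filter with at most 9 reads in a library.

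COL7A1 (ENSG00000114270), the only chain of the anchoring fibrils that hold epithelium to dermis, had 393, 414 and 364 CPM in knockdown libraries and 494, 549 and 379 CPM in control libraries. Control 3 lay within the knockdown range, and the gene was not called (-0.28, SE 0.12, adjusted p = 0.166). Without control 3 the fold change was -0.43 with an adjusted p of 0.0317, the lowest of alternative fits in which it reached up to 0.508.

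COL6A1 and COL6A2 encode chains of the beaded filaments that surround many cells, and neither was called. COL6A1 had 65.5, 42 and 53 CPM in knockdown libraries and 63.3, 73.3 and 49.6 CPM in control libraries, which overlapped (-0.22, SE 0.17, adjusted p = 0.464). COL6A2 had 21.3, 16.1 and 18.8 CPM in knockdown libraries and 26.6, 25.7 and 23.6 CPM in control libraries, which did not overlap (-0.43, SE 0.16, adjusted p = 0.0829, between 0.0135 and 0.182 in alternative fits). COL6A3, the third chain of the usual trimer, had 3, 5 and 7 reads in knockdown libraries and 1, 3 and 12 reads in control libraries, and COL6A5 and COL6A6 had 0 reads throughout. COL6A1 and COL6A2 lie on the same strand of chromosome 21 with 93046 bases between them.

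Of 11 fibrillar chains 7 were tested, 1 rose and 0 fell. COL2A1 (ENSG00000139219; chr12:47972965-48004554, minus strand), the main chain of cartilage fibrils, had 56, 53 and 79 reads in knockdown libraries, against 13, 10 and 10 reads in control libraries. These are 3.08, 2.32 and 3.03 CPM in knockdown libraries and 0.57, 0.431 and 0.384 CPM in control libraries, a low level in both groups with a wide gap between them. The fold change was 2.60 (SE 0.42, 95% interval 1.71 to 3.49, adjusted p = 0.000554). The knockdown libraries alone carried COL2A1 past the count filter, so its presence among tested genes is tied to its higher level there; in the fit with no count filter the adjusted p was 8.18e-06 and the fold change 2.58, within a range of 2.06e-06 to 0.00509 over all alternative fits.

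The type V chains, which limit the width of type I fibrils, were not called. COL5A1 had 62.6, 49.4 and 46.9 CPM in knockdown libraries and 77.9, 74.5 and 60.7 CPM in control libraries, with knockdown 1 just above control 3 (-0.42, SE 0.14, adjusted p = 0.0522). COL5A2 had 5.94, 4.99 and 4.65 CPM in knockdown libraries and 7.36, 7.45 and 7.48 CPM in control libraries, which did not overlap (-0.52, SE 0.23, adjusted p = 0.157). COL5A3 had 4.01, 2.23 and 2.11 CPM in knockdown libraries and 2.8, 3.32 and 1.69 CPM in control libraries, with no separation (0.09, SE 0.37, adjusted p = 0.912). COL5A1 lay on the threshold and passed it in several other fits, with adjusted p of 0.00886 without knockdown 1 and 0.0252 without control 3, and a range of 0.00819 to 0.195 over all of them.

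COL27A1, a fibrillar chain best known from developing cartilage, had 30.9, 32.4 and 24.7 CPM in knockdown libraries and 37.6, 43.9 and 35.8 CPM in control libraries. The groups did not overlap and the gene was not called (-0.42, SE 0.15, adjusted p = 0.073). Without knockdown 2 the fold change was -0.52 with an adjusted p of 0.0344, in a range of 0.0289 to 0.263 over alternative fits.

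The chains of type I collagen, the chief fibril of skin and bone, were scarce. COL1A1 had 7.31, 4.29 and 3.92 CPM in knockdown libraries and 6.79, 4.91 and 7.21 CPM in control libraries (-0.29, SE 0.28, adjusted p = 0.571). COL1A2 had 0.33, 0.35 and 0.422 CPM in knockdown libraries and 1.05, 0.603 and 0.384 CPM in control libraries (-0.86, SE 0.67, adjusted p = 0.467). Both overlapped between groups. COL3A1, the type III chain, had 0 reads in every library, while COL5A2, which lies 19149 bases from it on the opposite strand of chromosome 2, was expressed.

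Among 10 fibril-associated chains, which coat the surface of fibrils, 4 were tested, 1 rose and 0 fell. COL9A3 (ENSG00000092758; chr20:62816244-62841159, plus strand), a type IX chain known from the surface of cartilage fibrils, had 39.6, 32 and 34.7 CPM in knockdown libraries and 23.4, 23.9 and 16.5 CPM in control libraries. Every knockdown library was above every control library, at a fold change of 0.74 (SE 0.16, 95% interval 0.39 to 1.08, adjusted p = 0.00623) that passed in every alternative fit run. Of its trimer partners, COL9A1 had 0 reads throughout. COL9A2 had 1.32, 2.14 and 1.11 CPM in knockdown libraries and 2.23, 1.42 and 2.65 CPM in control libraries, which overlapped (-0.46, SE 0.40, adjusted p = 0.529).

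COL16A1, a fibril-associated chain found near basement membranes, was the third most abundant per deposited length in knockdown libraries. In control libraries it stood below COL18A1 (20.9 against 23.3 RPKM). COL16A1 had 171, 134 and 124 CPM in knockdown libraries and 201, 228 and 152 CPM in control libraries. Knockdown 1 lay above control 3, and the gene was not called (-0.44, SE 0.15, adjusted p = 0.0662). It passed without knockdown 1 (-0.59, adjusted p = 0.0144) and without control 3 (-0.60, adjusted p = 0.0102), and its adjusted p ran from 0.0009 to 0.236 over alternative fits. COL12A1, which binds type I fibrils, had 8.52, 11.8 and 5.8 CPM in knockdown libraries and 6.18, 8.96 and 12.5 CPM in control libraries, with no separation (-0.09, SE 0.29, adjusted p = 0.886) and a sign that turned to 0.0018 when no scaling factor was used.

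COL13A1, a transmembrane collagen of cell contacts, had 34, 39 and 26 reads in knockdown libraries and 15, 10 and 10 reads in control libraries. These are 1.87, 1.71 and 0.998 CPM in knockdown libraries and 0.657, 0.431 and 0.384 CPM in control libraries, without overlap. The fold change was 1.62 (SE 0.52, 95% interval 0.52 to 2.73) and the adjusted p of 0.051 lay just outside the threshold; this gene too met the filter in its knockdown libraries alone. Over alternative fits its adjusted p ran from 0.0345 to 0.161. COL8A2, a chain of the network under the corneal endothelium, had 0.66, 0.569 and 0.537 CPM in knockdown libraries and 0.526, 0.301 and 0.691 CPM in control libraries (0.21, SE 0.64, adjusted p = 0.882).

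The other 22 chains were not tested. Reads below the filter were found for 13 of them, with at most 12 reads in a library: COL26A1, COL11A2, COL8A1, COL15A1, COL22A1, COL23A1, COL6A3, COL4A4, COL28A1, COL24A1, COL4A3, COL14A1 and COL20A1. COL8A1, which pairs with COL8A2, had 9, 12 and 10 reads in knockdown libraries and 6, 0 and 3 reads in control libraries. COL24A1, a fibrillar chain of bone, had 0 reads in each knockdown library and 3, 2 and 6 reads in control libraries. A count of 0 allows up to 3 reads, equal to 0.115 to 0.165 CPM depending on the library. COL11A1, COL3A1, COL9A1, COL19A1, COL21A1, COL25A1, COL6A5, COL10A1 and COL6A6 had 0 reads in all 6 libraries, so their expression was not detected at this depth. Level per length rose with GC content here, and median GC content was 48.4% for the untested chains, against 61.7% for the tested ones. The part of GC content in the missing reads was not tested.

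Summed over all chains, collagen transcripts made up 2004, 1644 and 1603 CPM in knockdown libraries and 2358, 2527 and 1866 CPM in control libraries. Knockdown 1 exceeded control 3, so the sums overlapped between groups. As a share of library reads this was 0.203%, 0.175% and 0.161% in knockdown libraries and 0.226%, 0.246% and 0.182% in control libraries. COL4A2 and COL7A1 together held 69%, 68.4% and 68.6% of collagen reads in knockdown libraries and 65.2%, 66% and 64.6% in control libraries.

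The tested collagen chains had more exons and a higher GC content, by median, than tested protein-coding genes. The untested chains had a lower median GC content than the tested ones. Untested chains above the tested median were COL23A1 and COL20A1 (66% each), COL26A1 (64.2%) and COL11A2 (63.3%). The part of exon number and GC content in the counts was not tested. The tested chains had a median of 51 exons in the main transcript (4 to 118), against 9 for tested protein-coding genes, and a median GC content of 61.7% (46.3% to 67.4%), against 51% for tested protein-coding genes and 48.4% for the untested chains. In these libraries level per length went with GC content: with protein-coding genes tested split into 5 equal bins by GC, the median was 0.551 RPKM (by transcript length) in the lowest bin and 16.4 RPKM in the highest (Spearman 0.493 across 11759 genes that share the same libraries). Of the 21 tested chains 14 had 60% GC or more. The log2 fold change had a Spearman of -0.02 with GC content across the same genes. Single libraries leaned with GC content: in the highest of 5 bins by GC the median deviation from the mean of all 6 libraries was 0.14 (log2) in knockdown 1, and in the lowest bin 0.33 in knockdown 2 and -0.26 in control 1. Knockdown 1 was the highest of its group in 14 of 21 chains and control 3 the lowest of its group in 16 of 21, and the part of this in the collagen calls was not tested beyond the fits given above.

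**Figure D4:**
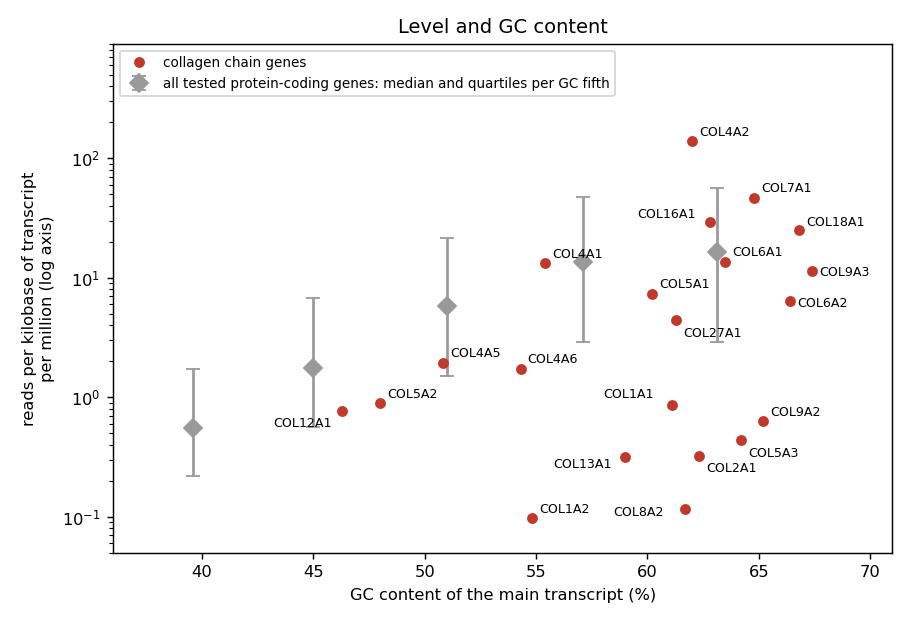
Mean level per length over both groups (RPKM by main transcript length, log axis) against GC content of the main transcript for the 21 tested collagen chain genes (red points). Grey diamonds with bars are medians and quartiles of all tested protein-coding genes in 5 bins by GC content, which climb from 0.551 at low GC to 16.4 at high GC. COL4A2 and COL7A1 sit at high GC, as do scarce chains such as COL2A1 and COL5A3, while COL4A1 lies lower, at 55.4%.

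Genes that act on collagen were read from 5 lists. Of their 75 genes 58 were tested, 15 fell, 6 rose and 37 were not called, so 36.2% were called beside 12.9% of all genes, of which 6.66% were called lower and 6.27% higher. The counts of each list below stand against these same shares. The median log2 fold change of the 58 genes was -0.08, beside 0.03 over all genes. The lists were drawn up with earlier results of these data known, so the shares describe them and were not tested. Exons of opposite-strand genes cover 6.45% of the exon bases of P4HA2 and 9.98% of those of P4HB, and shares between these in PLOD3, MIA2, LOXL1 and CSPG4, so their counts may hold reads of a neighbour.

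Of 18 folding and modification genes 16 were tested, 6 fell, 2 rose and 8 were not called, with a median of -0.22. P4HB, the shared subunit of the prolyl 4-hydroxylases that stabilise the helix, had 887, 746 and 853 CPM in knockdown libraries and 1285, 1215 and 1187 CPM in control libraries, which did not overlap (-0.57, SE 0.10, adjusted p = 0.00126). Its catalytic partner P4HA2 also fell (-0.59, adjusted p = 0.00613), as did the prolyl 3-hydroxylases P3H3 (-0.71, adjusted p = 0.000374) and P3H1 (-0.48, adjusted p = 0.0139). The lysyl hydroxylase PLOD3 (-0.45, adjusted p = 0.0104) and the galactosyltransferase COLGALT1 (-0.50, adjusted p = 0.00528) completed the 6. CRTAP, which forms a complex with P3H1, rose (0.37, adjusted p = 0.0435). Over alternative fits the adjusted p ran from 0.00283 to 0.0525 for P3H1, which lost its call without control 3, and from 0.00727 to 0.191 for CRTAP, which lost it with RLE scaling, DESeq2, limma-voom and 5 of 6 libraries left out in turn.

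PLOD2, the lysyl hydroxylase of the chain ends, had 5.39, 16.1 and 6.64 CPM in knockdown libraries and 2.59, 3.45 and 4.68 CPM in control libraries, at a fold change of 1.39 (adjusted p = 0.0261). Knockdown 2 stood far above the other libraries, and without it the fold change was 0.73 with an adjusted p of 0.148. The call was also lost without control 1 (adjusted p = 0.133), control 2 (0.155) or control 3 (0.0514), and the lowest adjusted p of any alternative fit was 1.24e-05, with no count filter. The genes of this list with the highest mean level per deposited length were not called (by transcript length P4HB stands above SERPINH1): PPIB, a prolyl isomerase whose exon bases lie 27.2% under an opposite-strand gene, had a fold change of 0.12 (adjusted p = 0.522), and SERPINH1, the collagen chaperone HSP47, one of 0.09 (adjusted p = 0.635).

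All 14 export genes were tested, and 13 of them were not called, with a median of -0.00. The one call was MIA2, part of the receptor complex that loads procollagen into carriers, with 0.11, 0.438 and 0 CPM in knockdown libraries and 1.27, 1.85 and 1.69 CPM in control libraries (-3.11, adjusted p = 0.0124). MIA2 was scarce, with 2, 10 and 0 reads in knockdown libraries and 29, 43 and 44 reads in control libraries, and its control libraries alone carried it past the count filter. The call was lost without control 2 (adjusted p = 0.0574) or control 3 (0.0504), the others reaching down to 0.000134. The coat regulators PREB (-0.14, adjusted p = 0.445) and PEF1 (-0.21, adjusted p = 0.212), highest of the list per deposited length, were not called.

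Of 15 processing and cross-linking genes 11 were tested, 1 fell, 2 rose and 8 were not called. BMP1, the protease that cuts off the procollagen ends, had 91.2, 66.6 and 86.3 CPM in knockdown libraries and 125, 117 and 113 CPM in control libraries (-0.54, adjusted p = 0.0074). Its relative TLL2 rose, with 14.2, 12.4 and 17.4 CPM in knockdown libraries and 7.76, 7.11 and 8.37 CPM in control libraries (0.92, adjusted p = 0.00524). The oxidase LOXL1 rose at a low level (1.18, adjusted p = 0.0355), a call that was lost without knockdown 2, knockdown 3, control 2 or control 3, at adjusted p of 0.0845, 0.151, 0.167 and 0.0858; the lowest of any fit was 0.0181. The abundant cross-linking enzymes TGM2 (-0.34, adjusted p = 0.0526) and LOXL2 (-0.03, adjusted p = 0.897) were not called.

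Of 13 receptors 8 were tested, 4 fell, 0 rose and 4 were not called, with a median of -0.48. MRC2, an endocytic receptor that takes up collagen fragments, had 152, 119 and 153 CPM in knockdown libraries and 253, 239 and 219 CPM in control libraries (-0.74, adjusted p = 0.000377), and 12.6% of its exon bases overlap an opposite-strand gene. CSPG4, a proteoglycan that binds type VI collagen, was lower at -0.63 (adjusted p = 0.0034). DDR1, the collagen receptor tyrosine kinase of epithelia, fell at -0.56 (adjusted p = 0.0117), and SDC1, the abundant epithelial syndecan, at -0.41 (adjusted p = 0.0155). Both lost the call without knockdown 3 (adjusted p of 0.0576 for DDR1 and 0.0778 for SDC1), DDR1 also without control 1 (0.0548) and SDC1 without control 2 (0.0617), while the lowest adjusted p in alternative fits were 6.43e-05 for DDR1 and 0.000572 for SDC1. ADGRG1, a receptor for type III collagen, had 302, 215 and 292 CPM in knockdown libraries and 286, 258 and 255 CPM in control libraries and was not called (0.02, adjusted p = 0.949).

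Of 15 matrix partners 9 were tested, 3 fell, 2 rose and 4 were not called. AGRN, the basement membrane proteoglycan agrin, had 1009, 829 and 1001 CPM in knockdown libraries and 1989, 1830 and 1707 CPM in control libraries, a wide gap (-0.96, SE 0.11, adjusted p = 1.92e-05). HSPG2, the proteoglycan perlecan, had 123, 93.2 and 110 CPM in knockdown libraries and 180, 182 and 163 CPM in control libraries (-0.69, adjusted p = 0.000718), with 11.7% of its exon bases under an opposite-strand gene. With COL18A1, these are the basement membrane heparan sulfate proteoglycans. TGFBI, which links type VI collagen to other matrix, fell as well (-0.41, adjusted p = 0.02).

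The partners that rose were BGN, the small proteoglycan biglycan (0.85, adjusted p = 0.014), and FBLN1, a fibulin (0.37, adjusted p = 0.0312). FBLN1 lost the call without any 1 of 5 libraries, at adjusted p of 0.0523 to 0.155, and BGN without knockdown 3 (0.0866), control 2 (0.071) or control 3 (0.0572); their lowest adjusted p in alternative fits were 0.00534 for FBLN1 and 0.00288 for BGN. SPARC, an abundant collagen-binding glycoprotein, was not called (0.09, adjusted p = 0.648). The nidogen NID2 had 0 reads in every library, and NID1 had reads in knockdown 2 alone.

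**Figure D5:**
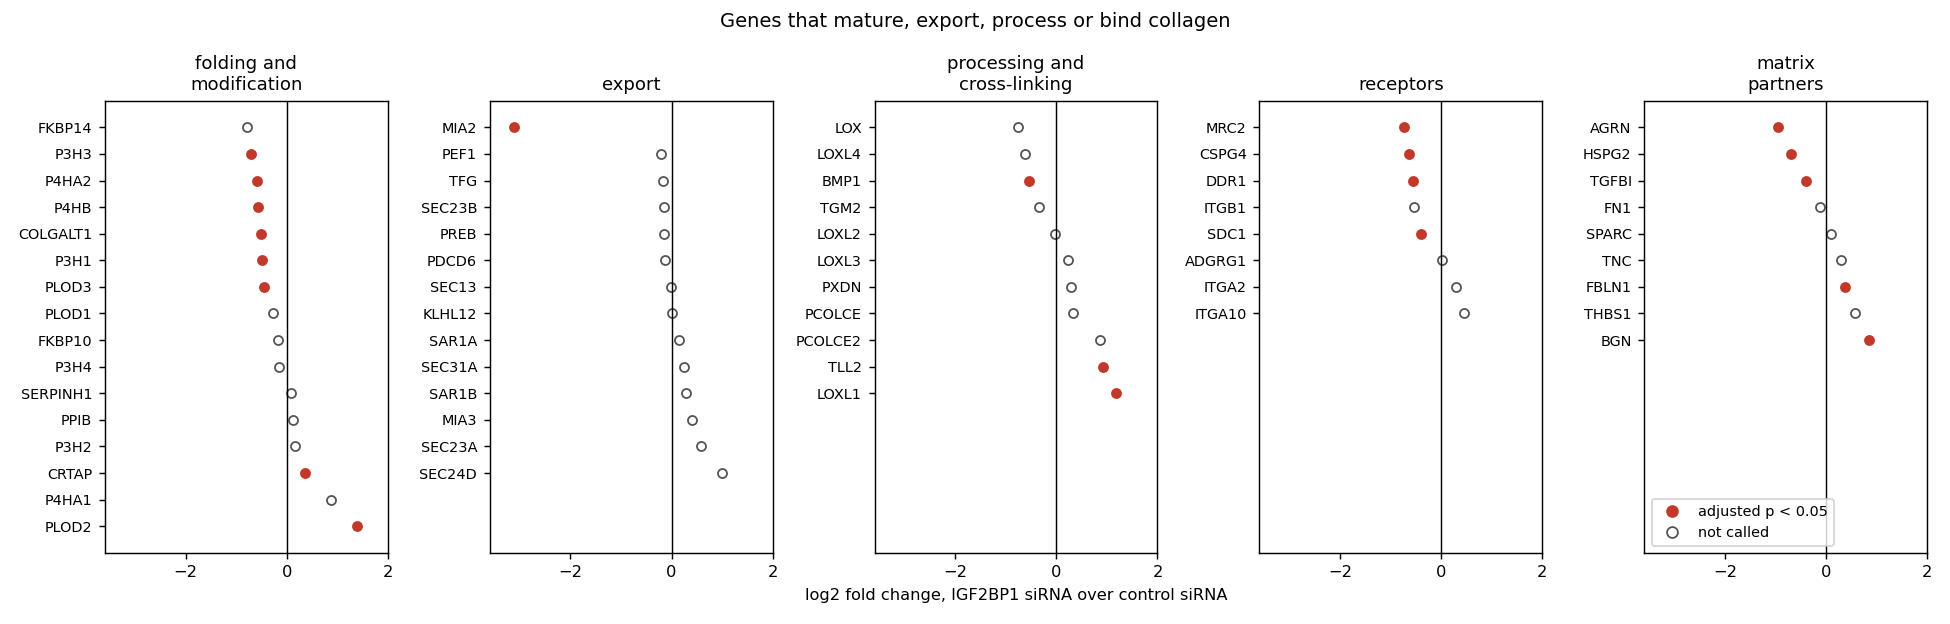
Log2 fold change, IGF2BP1 siRNA over control siRNA, of the 58 tested genes that mature, export, process or bind collagen, 1 panel for each of 5 lists, sorted within a panel. Filled points passed an adjusted p of 0.05. In the folding panel 6 of 16 genes are filled below 0, in the export panel only MIA2 (-3.11) is filled, and in the receptor panel the 4 filled genes all lie below 0.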

How the data were processed

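RNA was extracted with TRIZOL, selected on oligo-dT beads and made into dUTP (strand-marked) libraries, per the labels' protocols. The deposited values are raw read counts per gene, and the authors also gave a gene length in bases. Per the submitters' processing notes, cutadapt 2.8, HISAT2 2.1.0, SAMtools 1.10, featureCounts 2.0.0 and genome build hg38 were used; the sources used here do not give the annotation, the strand setting or the handling of multi-mapped reads. Genes passing filterByExpr (minimum count 10, minimum total 15; 14649 genes) were tested with edgeR 4.0.16 (R 4.3.3, TMM scaling, robust quasi-likelihood fit, 2 groups), with Benjamini-Hochberg adjustment over all of them and calls at an adjusted p under 0.05. Fold changes are knockdown over control, CPM values are TMM scaled, and RPKM divides them by the deposited length unless transcript length is named. Deposited lengths were 91.7% to 195% of the GENCODE release 29 exon union for the tested chains.

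Every tested collagen chain was named, with called genes and the 2 most abundant per length from each other list. The collagen rule and the lists were chosen with earlier results of these data known. Replicate libraries differed by far more than sampling noise (chi-square per degree of freedom 14.6 to 36.2), so none was counted as a copy. Floors of 3 reads cover counting error only. Alternatives were RLE or no scaling, no filter, a replicate block, each library left out, a stricter filter (at least 5 CPM in 3 libraries), DESeq2 1.42.0, limma-voom (limma 3.58.1) and, added after seeing the data, a GC content offset (97.3% of tested genes had a GC value) and transcript lengths.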

Additional observations from a re-analysis of the deposited data

How the results depend on the processing

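Among the 5 called chains, COL18A1, COL4A1, COL9A3 and COL2A1 passed in every alternative that tested them (COL2A1 was not in the stricter filter), and only COL4A5 lost its call. The count of 5 called chains (3 lower, 2 higher) was 9 (7 lower) with no count filter and 10 (7 lower) with DESeq2. With the GC offset it was 11 (8 lower), and under the stricter filter 1 chain was called higher. Over all tested genes the GC offset raised calls from 1893 to 2476. Calls over all genes in the other alternatives are not given here. Leaving out 1 library gave 4 to 9 called chains, 2 to 7 of them lower and 2 in each case higher. Whether replicate numbers pair the libraries was not settled. Same-numbered deviations correlated at 0.179, 0.0863 and -0.073, and differently numbered ones at -0.235 to 0.166. With the replicate number as a block 9 chains were called, 6 lower. Of the other lists, 6 genes were called higher, against 10 with the GC offset and 1 to 4 with a library left out. The fold changes of 4 uncalled chains changed sign: with a library left out, COL8A2 ranged from -0.07 (without control 2) to 0.48, COL12A1 from -0.40 to 0.19 (without control 3), COL4A6 from -0.23 to 0.039 (without knockdown 3) and COL5A3 from -0.26 (without knockdown 1) to 0.28, and with no scaling factor COL12A1 was 0.0018 and COL4A6 0.021. Levels and ratios per length moved with the gene length used. The cause of these changes was not tested. Low read counts limit the 22 untested chains and COL1A2, COL8A2, COL13A1, COL2A1, COL9A2 and COL5A3, all with under 80 reads in every library. The parts of depth and of GC content in these low counts were not tested.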

Other observations

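COL2A1 and COL9A3 are both known as cartilage chains, so other cartilage genes were read out; this list of 20 genes was chosen after the values of those chains were seen. Of the 20, 6 were tested, 2 were called higher (COL2A1 and COL9A3 themselves) and 0 lower. Over all tested genes 6.27% were called higher and 6.66% lower. COL27A1, given above, was not in this list. It was lower in every knockdown library than in every control library and was not called (-0.42, adjusted p = 0.073). ACAN, the cartilage proteoglycan aggrecan, and SOX5, HAPLN1, CNMD, EPYC, COL9A1 and COL11A1 had 0 reads in all 6 libraries. SOX9, the transcription factor that activates COL2A1 in chondrocytes, had 27.1, 24.9 and 16.4 CPM in knockdown libraries and 21.4, 22.4 and 24.6 CPM in control libraries (log2 fold change -0.00, adjusted p = 0.996). MATN3, a matrilin of cartilage, had 0.33, 0.525 and 0.346 CPM in knockdown libraries and 0.701, 0.861 and 0.192 CPM in control libraries (adjusted p = 0.708). SNORC, a cartilage proteoglycan, had 10, 5 and 4 reads in knockdown libraries and 18, 33 and 8 reads in control libraries (adjusted p = 0.237).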
